A study of Mus musculus with 12 samples.

Results

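The cytosolic heat shock proteins examined here were 10 listed genes that encode chaperones of the cytosol and their main transcription factor: Hspa1a, Hspa1b, Hspa8, Hspa4, Hspb1, Hsph1, Hsp90aa1, Hsp90ab1, Dnajb1 and Hsf1. Every probe set paired with exactly 1 of these genes was taken, whatever its value, which gave 23 of 45037 probe sets and covered 8 of the 10 genes. Hsp90ab1 and Hsf1 had no such probe set and were not analysed here. The list was chosen by a measured value, the strong difference of Hspa1a between pairs of control arrays, so that difference is described below without a test. Of the 23 probe sets, 22 averaged 100 or more in signal across all arrays and were tested, and the last, the Hspa4 probe set 1440575_at, had a mean signal of 36.7.

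The arrays held RNA from mouse blastocysts in 3 groups of 4: control embryos, embryos treated by 20 Ca2+ pulses, and embryos cultured in Ca2+-free medium. The study's title concerns the Ca2+ oscillations of the fertilized egg, and the comparisons ask how gene expression in the blastocyst differed once that signal had been altered. Mouse strain, embryo age, embryos per array and the time spent in each treatment are not stated in the sources used here. The labels do not say that replicates were separate collections, so p-values measure the spread between these samples only. In RNA from whole embryos, fewer cells of a type and less RNA per cell cannot be told apart.

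Heat shock proteins hold unfolded proteins and help them to fold, assemble or be degraded. The HSP70 proteins bind short exposed stretches in a cycle driven by ATP, HSP40 proteins start that cycle, HSP110 proteins end it by exchanging the nucleotide, HSP90 acts later on signalling proteins, and small heat shock proteins hold aggregating proteins without ATP. Stress frees the transcription factor HSF1, which binds repeated GAA units in the promoters of the inducible genes, and in the mouse the inducible Hspa1a and Hspa1b genes are also among the first genes transcribed after fertilization.

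Promoters of 6 of the 8 genes were available from RefSeq, on the mouse build GRCm38.p6, as 8 windows. Of these, 4 are shown as the 250 bases before the annotated start, 5′ to 3′ on the gene's strand. They are those of the paired genes Hspa1a and Hspa1b, of Hspb1, whose signal also separated arrays of a group, and of Hspa4, which held the single member called in both comparisons with control. Capitals mark the match to GAANNTTC, 2 HSF1-type units that face each other. Hspa1a and Hspa1b lie next to each other on chromosome 17, chr17:34972157-34972406 and chr17:34959239-34959488, both on the minus strand. Hspb1 is at chr5:135887669-135887918 on the plus strand, and Hspa4 at chr11:53300480-53300729 on the minus strand.
Hspa1a: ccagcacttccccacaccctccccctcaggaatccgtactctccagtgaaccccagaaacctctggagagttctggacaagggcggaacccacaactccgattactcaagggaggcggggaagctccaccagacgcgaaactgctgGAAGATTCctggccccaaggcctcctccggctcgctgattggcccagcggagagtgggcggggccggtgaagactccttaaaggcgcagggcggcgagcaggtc
Hspa1b: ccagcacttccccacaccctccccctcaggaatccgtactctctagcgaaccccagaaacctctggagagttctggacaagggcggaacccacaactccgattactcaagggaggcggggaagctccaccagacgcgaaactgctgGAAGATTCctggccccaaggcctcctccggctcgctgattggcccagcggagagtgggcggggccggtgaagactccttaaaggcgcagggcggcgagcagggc
Hspb1: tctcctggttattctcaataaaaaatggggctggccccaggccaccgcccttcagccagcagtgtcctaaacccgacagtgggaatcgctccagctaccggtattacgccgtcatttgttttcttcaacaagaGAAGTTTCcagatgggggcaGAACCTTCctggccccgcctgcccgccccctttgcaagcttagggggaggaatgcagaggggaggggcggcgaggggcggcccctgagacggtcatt
Hspa4: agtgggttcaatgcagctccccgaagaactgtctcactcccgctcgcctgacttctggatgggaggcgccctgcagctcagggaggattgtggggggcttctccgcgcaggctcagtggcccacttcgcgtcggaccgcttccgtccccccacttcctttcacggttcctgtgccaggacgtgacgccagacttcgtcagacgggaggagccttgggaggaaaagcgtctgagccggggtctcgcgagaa

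The Hspa1a and Hspa1b windows differed at 3 of 250 bases and were 98.8% identical. Each held GAAGATTC from 104 to 97 bases before the start, and a CCAAT box on the opposite strand (ATTGG) from 67 to 63 bases before it. The Hspb1 window held GAAGTTTC from 117 to 110 and GAACCTTC from 97 to 90 bases before the start. Both Hsph1 windows held TTCTCGAA, a match to the outward arrangement TTCNNGAA, and the Hspa4 window and both Dnajb1 windows held neither arrangement. The second Dnajb1 window, chr8:83608298-83608547, lies downstream of the first, chr8:83607925-83608174, on the plus strand. It therefore does not describe the bases before the start used for the first window. On the whole promoter table GAANNTTC was found in 6.69% of 32851 windows, TTCNNGAA in 7.17%, either in 12.8%, and CCAAT on either strand in 33.8%. Both pair arrangements read the same on either strand. Runs of 3 alternating units, in 0.466% of all windows, were in none of the members' windows. A match is a description of the letters and not a measured binding site.

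Arrays of a group were not alike throughout. The first principal component of the tested probe sets held 40.2% of the variance and set the Ca-free arrays apart from the other 8. The second (10.5%) set the pulsed arrays (-18.9 to -16.6) apart from the controls (4.2 to 26.8). On the second and the third (9.89%), controls 1 and 2 lay apart from controls 3 and 4. Ca-free arrays 1 and 4 lay apart from arrays 2 and 3 on both as well. Neither of these splits within a group is in the labels. Below, controls 1 and 2 are the first control pair and controls 3 and 4 the second. For Actb the signal of the 3' end over that of the 5' end was 1.59 and 1.67 in the first pair but 2.69 and 2.64 in the second, against 1.49 to 1.69 after pulses and 1.69 to 1.88 in Ca-free medium. Signal from the 5' end of 18S rRNA was 2409 and 2559 in the first pair but 878 and 883 in the second, 2653 to 3688 after pulses and 4003 to 5780 in Ca-free medium. The Gapdh ratio of the 3' to the 5' end was 5.76 to 8.9 in control, 5.7 to 7.58 after pulses and 2.89 to 5.05 in Ca-free medium. All 5 epiblast, 6 trophectoderm and 5 primitive endoderm markers listed passed the minimum signal, and these are the cell types of a blastocyst. Of the 6 cumulus and granulosa markers, Has2, Ptx3, Tnfaip6 and Amh lay under it and Cyp19a1 had no probe set, with a summed signal of 479 to 634 in control, 393 to 591 after pulses and 317 to 393 in Ca-free medium. All 5 oviduct and uterine epithelium markers passed it, with sums of 1592 to 1956, 1333 to 2062 and 761 to 1319 in this order. Stromal markers (4 of 5 passed, Lum under) summed to 1120 to 1141, 791 to 951 and 567 to 792, and blood markers (Ptprc under, Hbb-b1 without a probe set) to 605 to 878, 729.6 to 893 and 528 to 575. The part of these RNA measures and markers in the Ca-free changes given below was not tested.

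Hspa1a, the stress-inducible HSP70, had more signal in controls 1 and 2 than on any other array. Its probe set, 1452388_at, read 5717 and 5219 in the first pair, 260.3 and 284 in the second, 140.1, 149, 144 and 185 after 20 pulses, and 242, 114, 105 and 230.1 in Ca-free medium. The pulses and Ca-free arrays overlapped each other, and every one of them lay below every control. Controls 1 and 2 exceeded controls 3 and 4 by 20.1-fold in mean signal, or 4.18 on the log2 scale, the highest difference of the 27808 probe sets tested. Across groups the mean signal was 2870 ± 3007 in control, 154 ± 20.7 after pulses and 173 ± 73.1 in Ca-free medium (SD, n = 4 each).

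All 3 probe sets of Hspa1b, the neighbouring inducible copy, were also highest in controls 1 and 2, while Ca-free arrays overlapped controls 3 and 4 in each of them and pulsed arrays in 2. The brightest, 1452318_a_at, read 10269 and 10477 in the first pair, 3507 and 3547 in the second, 2962, 2682, 2996 and 2984 after pulses, and 3758, 2195, 2626 and 3584 in Ca-free medium. The probe set 1427127_x_at read 4564 and 4707, then 577 and 689 in the controls, 639.8, 668, 828 and 600.0 after pulses, and 1071, 632, 722 and 1098 in Ca-free medium. The probe set 1427126_at read 3697 and 3518, then 589 and 543, against 552, 474, 573 and 482 after pulses and 624, 438, 479 and 703 in Ca-free medium. In mean signal, controls 1 and 2 exceeded controls 3 and 4 by 2.94-fold, 7.32-fold and 6.38-fold in this order. These were differences of 1.55, 2.82 and 2.61 on the log2 scale, ranking 21, 2 and 3 among all probe sets. Transcripts of Hspa1a and Hspa1b are nearly identical in their coding parts, and the probes behind a signal cannot be assigned to one gene with certainty. The suffix _x_at marks probe sets with probes that also match other sequences.

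**Figure D1:**
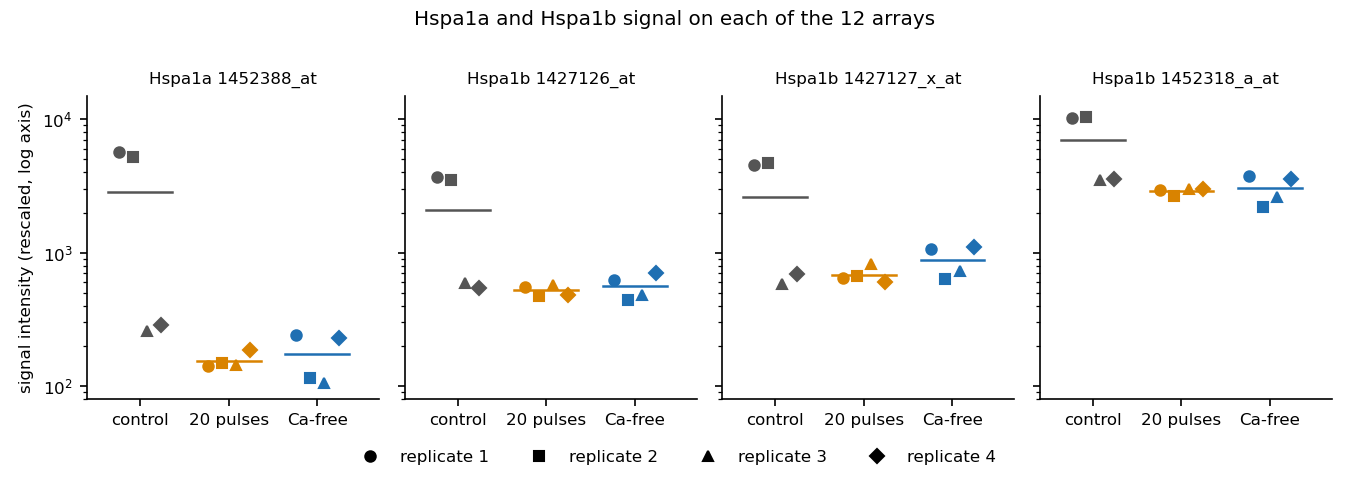
Signal of the Hspa1a probe set and the 3 Hspa1b probe sets on each of the 12 arrays, on a log axis; symbols are replicates, horizontal lines group means (n = 4 each). In every panel controls 1 and 2 lie above the other 10 arrays, and Ca-free arrays 1 and 4 lie above arrays 2 and 3.

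The 4 Hspa1 probe sets were the only tested members in which the control pairs differed by at least 2-fold without overlap, taken as a difference of at least 1 on the log2 scale with 32 added. Over all tested probe sets 0.579% were higher in controls 1 and 2 by that rule and 0.378% lower. Without the fold limit, 14 of the 22 tested members were higher in controls 1 and 2 and 3 lower, with no overlap, against a background of 27.7% and 21.8%. Those 14 include the 4 Hspa1 probe sets, and the list was chosen by the Hspa1a difference. Without Hspa1a and Hspa1b, 10 of 18 were higher and 3 lower. Members just inside and just outside the 2-fold limit were Hspa1b 1452318_a_at (1.55) and Hspb1 1425964_x_at (0.70). RNA measures moved with the same split (the Actb, Gapdh and 18S values above), as did summed epiblast markers, at 16883 to 17986 in the first pair and 19283 to 19415 in the second. Their part in the Hspa1a and Hspa1b difference was not tested.

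In Ca-free medium against control, limma gave Hspa1a a log2 change of -2.73 (SE 0.787, Benjamini-Hochberg adjusted p = 0.014). The changes of the Hspa1b probe sets were -1.02 (1452318_a_at, adjusted p = 0.0179), -1.34 (1427126_at, adjusted p = 0.042) and -0.98 (1427127_x_at, adjusted p = 0.152, not called). After 20 pulses the same probe sets had changes of -2.80, -1.05, -1.42 and -1.31, none called (limma adjusted p = 0.0914, 0.106, 0.166 and 0.247). These comparisons share the control arrays. They include the pair by whose Hspa1a signal the list was chosen, so these p-values do not stand as support. Against controls 1 and 2 alone the Ca-free changes were -4.82, -1.79, -2.64 and -2.39, and those after pulses -4.89, -1.83, -2.72 and -2.71, in the order Hspa1a, 1452318_a_at, 1427126_at, 1427127_x_at, given without a test. Against controls 3 and 4 alone the Ca-free changes were -0.64, -0.25, -0.03 and 0.42, and those after pulses -0.71, -0.28, -0.12 and 0.10, in the same order, none called. For 1452318_a_at the Ca-free call was lost when control 1 (-0.77), control 2 (-0.76) or Ca-free array 2 (-0.88) was left out. For 1427126_at it was lost when control 1 (-0.89), control 2 (-0.92) or any single Ca-free array (-1.45 to -1.23) was left out. Without control 4, Hspa1a was called after pulses (-3.48, limma adjusted p = 0.0461) and 1427127_x_at in Ca-free medium (-1.41), as the latter was without control 3 (-1.49). Ca-free and pulsed embryos differed by 0.07, 0.03, 0.08 and 0.32, again none called (limma adjusted p = 0.954, 0.946, 0.909 and 0.665). Those p-values use a spread estimated with the control arrays included. Fitted on the 8 Ca-free and pulsed arrays alone, none was called either (limma adjusted p = 0.834, 0.878, 0.674 and 0.166).

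Within the Ca-free group, arrays 1 and 4 exceeded arrays 2 and 3 without overlap in all 4 Hspa1 probe sets, by 2.15-fold in Hspa1a and by 1.52-fold, 1.6-fold and 1.45-fold in 1452318_a_at, 1427127_x_at and 1427126_at of Hspa1b. The same arrays were apart in Hspb1, the small heat shock protein HSP25. The probe set 1422943_a_at read 3127 and 3597 on Ca-free arrays 1 and 4 and 1660 and 1587 on arrays 2 and 3, against 2628, 2992, 2162 and 1915 in control and 1850, 1631, 1847 and 1810 after pulses. Its companion 1425964_x_at read 1772 and 1430 on Ca-free arrays 1 and 4, 734 and 608 on arrays 2 and 3, 1112, 1566, 816 and 781 in control, and 1102, 1047, 907 and 1117 after pulses. In mean signal Ca-free arrays 1 and 4 exceeded arrays 2 and 3 by 2.07-fold and 2.39-fold. On the log2 scale with 32 added, the differences were 1.03 and 1.21 in Hspb1 and 0.92 in Hspa1a. A difference of at least 1 on that scale without overlap was met by both Hspb1 probe sets and no other member, and by 0.834% of all probe sets upward and 0.324% downward.

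No change of Hspb1 between groups passed the test. The log2 changes were -0.03 and 0.00907 in Ca-free medium against control, -0.42 and 0.02 after pulses against control, and 0.38 and -0.00758 between Ca-free medium and pulses. All 4 pulsed arrays lay below all controls in 1422943_a_at, at 1784 ± 104 against 2424 ± 480 (SD, n = 4 each; limma adjusted p = 0.373). The Ca-free split also had summed primitive endoderm markers at 16053 to 16850 on arrays 1 and 4 and 14044 to 15716 on arrays 2 and 3, and epiblast markers at 15823 to 17331 and 19322 to 20527. The 3' to 5' ratio of Gapdh was 5.05 and 4.73 on arrays 1 and 4 and 3.1 and 2.89 on arrays 2 and 3, and the 18S rRNA signal 4003 and 4640 against 5780 and 5237. Their part in the Hspb1 values was not tested.

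**Figure D2:**
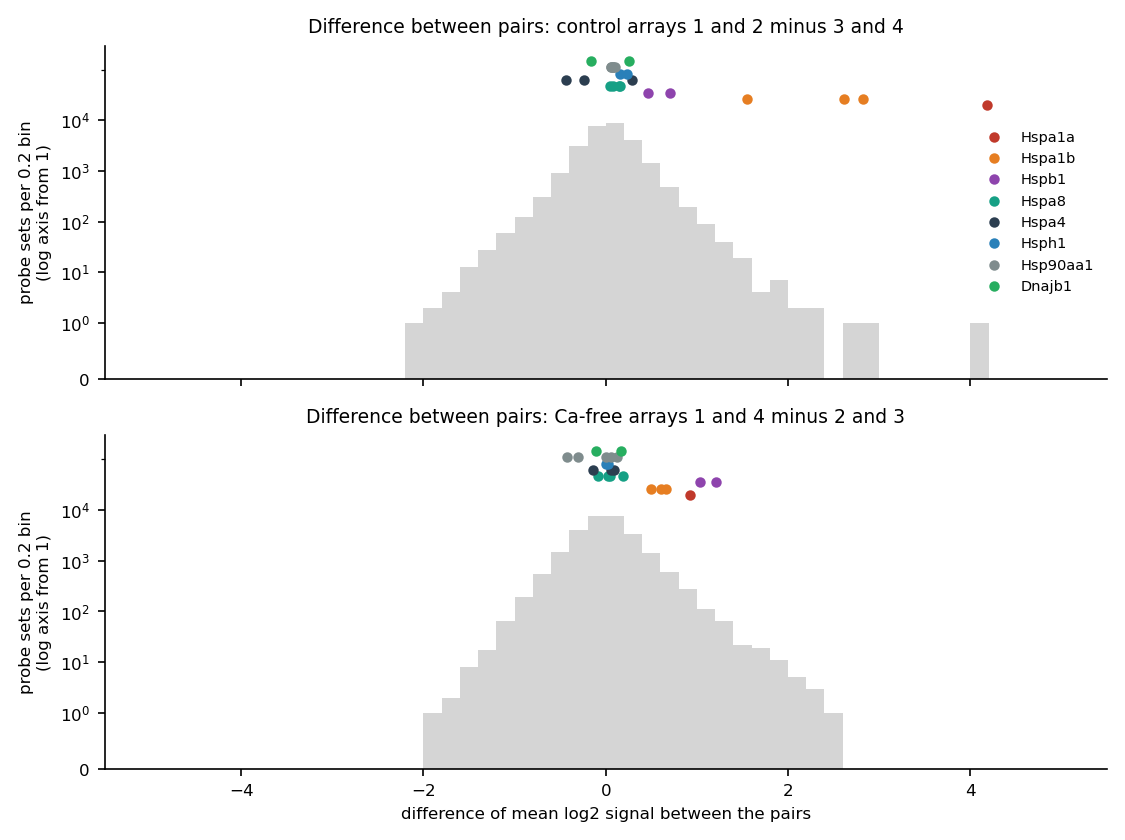
Distribution over the 27808 tested probe sets (grey bars, counts per 0.2 log2 bin, log axis from 1) of the difference between control arrays 1 and 2 and arrays 3 and 4 (top) and between Ca-free arrays 1 and 4 and arrays 2 and 3 (bottom); coloured points are the 22 member probe sets, placed above the bars at arbitrary heights. Hspa1a (4.18) and Hspa1b (1.55 to 2.82) stand at the far right of the top panel, and Hspb1 (1.03 and 1.21) is furthest right among members in the bottom one.

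Hspa8, the constitutive HSC70, had overlapping signals in the 3 groups in its brightest probe set. The probe set 1455789_x_at read 15581, 17618, 16006 and 15443 in control, 15819, 14116, 14672 and 15209 after pulses, and 16175, 16923, 15192 and 16944 in Ca-free medium. Over its 4 probe sets the log2 changes ran from -0.06 to 0.09 in Ca-free medium against control, from -0.20 to 0.12 after pulses against control, and from -0.03 to 0.15 between Ca-free medium and pulses. In 1420622_a_at every pulsed array (13461 to 15514) lay below every control (15678 to 18308), and in 1431182_at every pulsed array (546 to 568) lay above every control (489 to 528). None of the 4 was called by limma in any of the 3 comparisons (lowest adjusted p = 0.0758). Between Ca-free medium and pulses, leaving out Ca-free array 3 gave calls in 1455789_x_at (0.16) and 1420623_x_at (0.18), and leaving out pulsed array 1 a call in 1420623_x_at (0.19).

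Hspa4, an HSP110 nucleotide exchange factor, had more signal in Ca-free medium in 2 of its 3 tested probe sets. The probe set 1435194_at read 923, 928, 697 and 806 in control, 1170, 1234, 1338 and 1331 after pulses, and 1380, 1309, 1556 and 1211 in Ca-free medium. Every treated array lay above every control, and the treated groups overlapped each other. The signal rose from 838 ± 110 to 1364 ± 146 in Ca-free medium (SD, n = 4 each; log2 change 0.68, SE 0.102, limma adjusted p = 4.40e-04) and to 1268 ± 81.1 after pulses (0.59, SE 0.102, limma adjusted p = 0.013). The Ca-free call held in all 25 alternatives tried. The call after pulses ended against controls 1 and 2 alone (0.44, limma adjusted p = 0.0867) and without replicate 3 or 4 of the pulsed group (0.56 each, limma adjusted p = 0.0515 and 0.0501).

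The brighter probe set of Hspa4, 1416146_at, read 4776, 4790, 5619 and 5723 in control, 4975, 5390, 5341 and 5293 after pulses, and 6263, 6752, 5631 and 6922 in Ca-free medium. It rose by 0.29 on the log2 scale in Ca-free medium against control (SE 0.0755, limma adjusted p = 0.00846) and by 0.28 against pulses (limma adjusted p = 0.0134), and all 4 Ca-free arrays lay above all pulsed ones. Against control the call ended under quantile normalization, scaling to hybridization controls, and against controls 3 and 4 alone (0.17). The call against pulses ended under quantile normalization (0.10) and scaling to hybridization controls (-0.09). The dim probe set 1416147_at, at 217 ± 44.6 in control and 162 ± 25.9 in Ca-free medium, was not called (-0.35, limma adjusted p = 0.16), so the probe sets of this gene did not agree in sign.

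Hsph1, the inducible HSP110, read 7925, 8327, 7126 and 6753 in control, 7433, 7177, 7314 and 7792 after pulses, and 8657, 8801, 8272 and 8798 in Ca-free medium in 1425993_a_at. All Ca-free arrays lay above all pulsed ones, and control 2 overlapped them. The log2 change was 0.20 against control (SE 0.061, limma adjusted p = 0.0181) and 0.22 against pulses (limma adjusted p = 0.0161), and the call against control ended without control 3 (0.18) or control 4 (0.15), against controls 1 and 2 alone (0.09, beside 0.31 against controls 3 and 4) and under quantile normalization (0.11), and the change turned to -0.00577 under scaling to hybridization controls. The other probe set, 1423566_a_at, was called against pulses only, at 1788 ± 138 against 1434 ± 137 (SD, n = 4 each; 0.31, limma adjusted p = 0.0193), and not against control (0.14). That call ended without pulsed array 1 (0.25) or Ca-free array 2 (0.27). Neither Hsph1 call against pulses held under quantile normalization (0.06 in 1425993_a_at and 0.28 in 1423566_a_at).

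**Figure D3:**
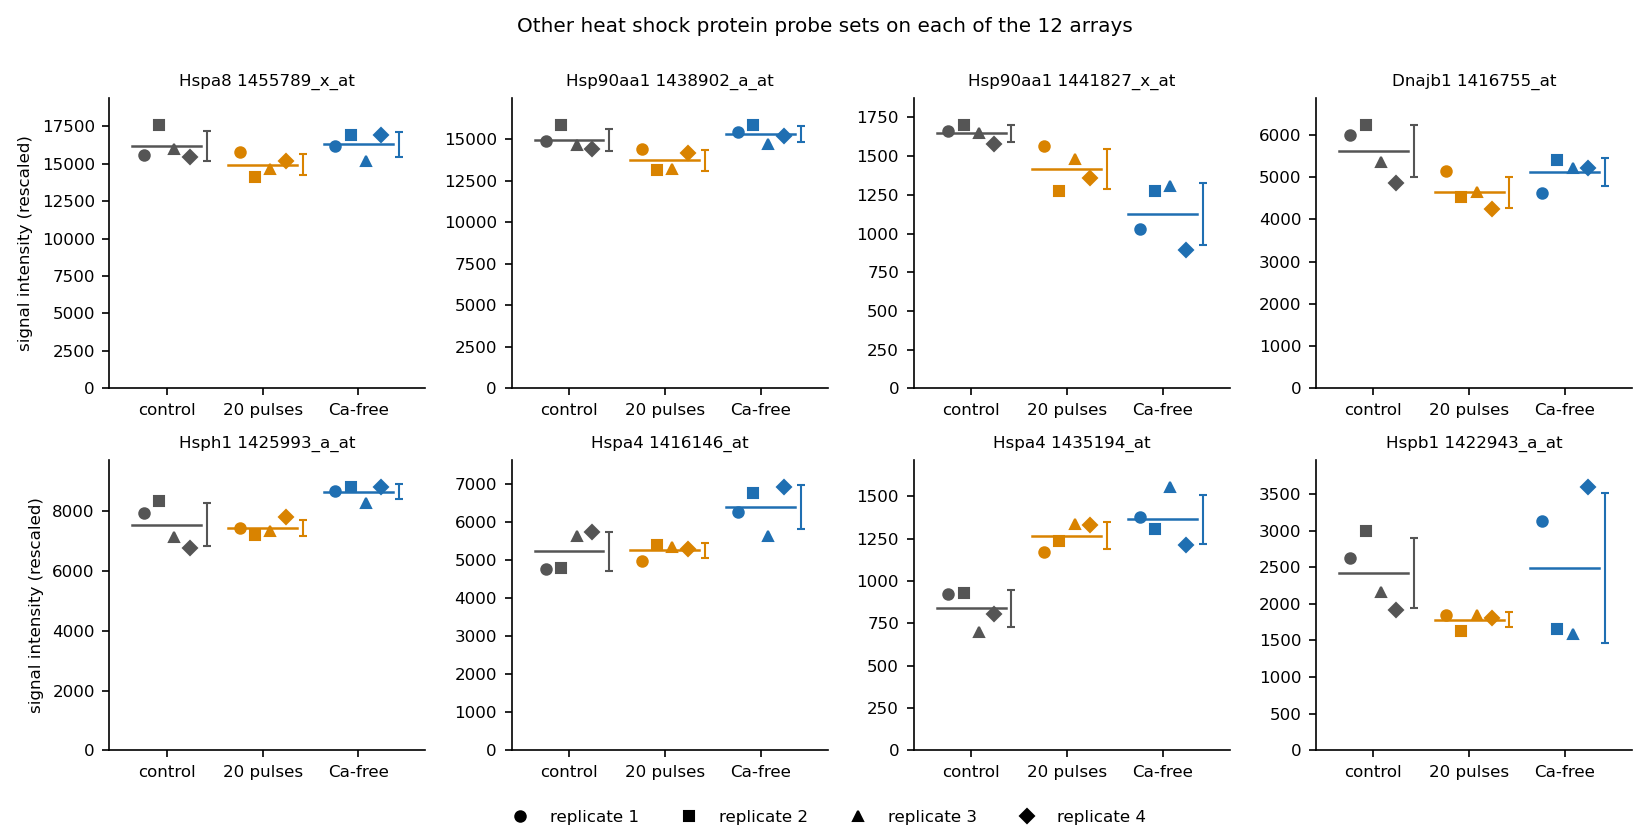
Signal of 8 probe sets of Hspa8, Hsp90aa1, Dnajb1, Hsph1, Hspa4 and Hspb1 on each array, on linear axes from 0; symbols are replicates, lines group means and bars to the right SD (n = 4 each). Hspa4 1435194_at is higher in both treated groups than in control, Hspb1 splits the Ca-free arrays, and the groups overlap in Hspa8 1455789_x_at.

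Hsp90aa1, the inducible cytosolic HSP90, gave signals that moved in opposite directions by probe set. The 3 bright probe sets were not called in Ca-free medium against control (log2 changes of 0.03 to 0.13), although leaving out Ca-free array 3 gave calls of 0.16 in 1426645_at and 0.19 in 1437497_a_at, and leaving out control 2 a call of 0.16 in 1426645_at. They rose against pulses, by 0.16 (1438902_a_at, limma adjusted p = 0.0171), 0.27 (1437497_a_at, 0.0105) and 0.23 (1426645_at, 0.00655). In 1438902_a_at the values were 14883, 15862, 14680 and 14395 in control, 14392, 13131, 13234 and 14188 after pulses, and 15445, 15879, 14703 and 15225 in Ca-free medium. Each pulsed array lay below each Ca-free array. In 1438902_a_at the call ended without pulsed array 2 or 3 (0.14 each). The rises reversed to -0.21, -0.10 and -0.14 under scaling to hybridization controls. Under quantile normalization they were -0.04, 0.06 and 0.04, none called. With Ca-free arrays 2 and 3 only, none of the 3 was called either.

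Of the 2 dim Hsp90aa1 probe sets, 1441827_x_at read 1661, 1703, 1646 and 1576 in control, 1562, 1272, 1480 and 1357 after pulses, and 1028, 1274, 1306 and 894 in Ca-free medium, and every Ca-free array lay below every control. It fell by 0.55 on the log2 scale against control (SE 0.108, limma adjusted p = 0.00178). The other, 1433251_at, read 248 ± 24.3 in control and 159.6 ± 28.9 in Ca-free medium and fell by 0.56 (SE 0.129, limma adjusted p = 0.00437). Both calls ended under median scaling, and that of 1433251_at also under quantile normalization (-0.23). Both also fell against pulses, by 0.34 and 0.43 (limma adjusted p = 0.0284 and 0.0207), calls that ended without pulsed array 1 (-0.29 and -0.41) or Ca-free array 1 (-0.30 and -0.33). In 1441827_x_at the call also ended without pulsed array 3 (-0.32) or Ca-free array 4 (-0.23).

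Dnajb1, a stress-inducible HSP40, read 6004, 6239, 5364 and 4865 in control, 5136, 4539, 4637 and 4237 after pulses, and 4624, 5397, 5222 and 5223 in Ca-free medium in the bright probe set 1416755_at. Controls 1 and 2 were the highest of the 12 arrays, by 1.2-fold over controls 3 and 4. The changes were -0.13 in Ca-free medium (limma adjusted p = 0.211) and -0.27 after pulses (0.112), neither called. The dim probe set 1416756_at had the opposite order in the controls (876 and 884, then 978 and 1001) and fell by 0.32 in Ca-free medium (SE 0.0986, limma adjusted p = 0.0189), a call that ended without Ca-free array 3 (-0.28) and turned to 0.08 under median scaling.

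Across the 22 tested members, limma called 3 higher and 6 lower in Ca-free medium against control, where 10.6% and 29.7% of all probe sets were higher and lower (40.3% in all). After 20 pulses it called 1 higher and 0 lower, against 1.1% and 0.374% (1.48% in all). Between Ca-free medium and pulses it called 6 higher and 2 lower, against 9.22% and 23.4% (32.6% in all). Groups did not overlap in 1 member above and 4 below control in Ca-free medium (9.23% and 27% of all probe sets), 2 above and 6 below control after pulses (5.85% and 5.11%), and 6 above and 1 below pulses in Ca-free medium (9.29% and 22.2%). Ca-free arrays 1 and 4 lay wholly above arrays 2 and 3 in 8 members and below in 2 (24.9% and 26%). Without Hspa1a and Hspa1b, 3 of 18 were called higher and 3 lower in Ca-free medium against control. Of these 18, 1 lay wholly above and 3 below control in Ca-free medium, and 2 above and 4 below after pulses. Ca-free arrays 1 and 4 lay wholly above arrays 2 and 3 in 4 of the 18 and below in 2. Median log2 changes of the 18 were 0.01, -0.13 and 0.14 in the 3 comparisons. The median log2 change of all 22 members was -0.04, -0.18 and 0.13 in the 3 comparisons, beside -0.18, -0.03 and -0.17 over all tested probe sets.

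**Figure D4:**
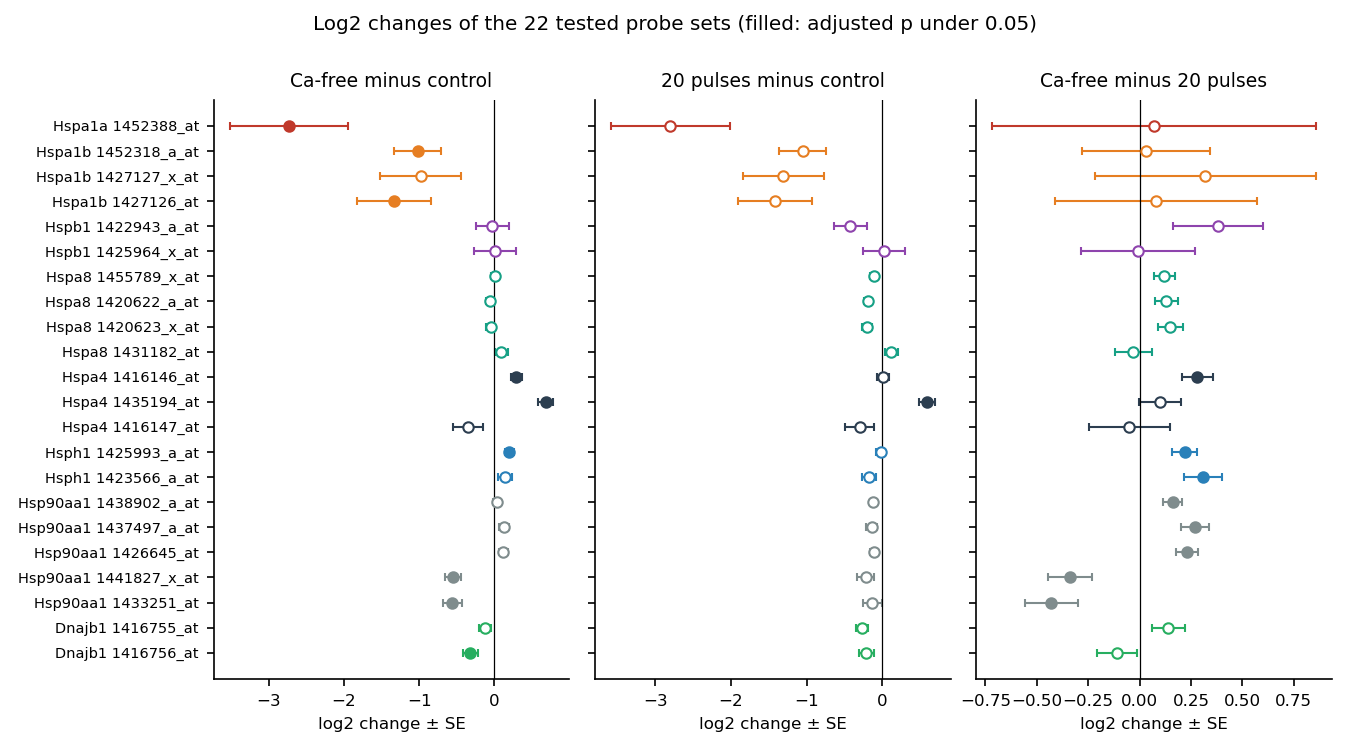
Log2 change with SE (n = 4 arrays per group) of the 22 tested probe sets in the 3 comparisons; filled points passed limma's adjusted p of 0.05. Hspa1a and Hspa1b have the widest errors, and the filled points against pulses lie on both sides of 0 for Hsp90aa1.

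Directions in the Ca-free comparisons depended on how the arrays were scaled. Against control the numbers called higher and lower were 3 and 6 in the main scaling, 1 and 5 after quantile normalization, 12 and 1 with arrays scaled to their medians, and 1 and 12 with arrays scaled to hybridization controls. The median of all tested probe sets shifted with it, from -0.18 to -0.02, 0.20 and -0.36. In the same order, 10.6%, 9.78%, 36.9% and 2.74% of all tested probe sets were called higher and 29.7%, 9.98%, 5.46% and 49.2% lower. Against pulses the corresponding members were 6 and 2, 0 and 0, 13 and 0, and 0 and 12. Of all tested probe sets, 9.22%, 5.06%, 31.6% and 0.329% were higher there and 23.4%, 5%, 3.52% and 71% lower. Median signals as deposited were 49.37 to 53.05 in control, 47.35 to 53.65 after pulses, and 38.29 to 39.2 in Ca-free medium.

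**Figure D5:**
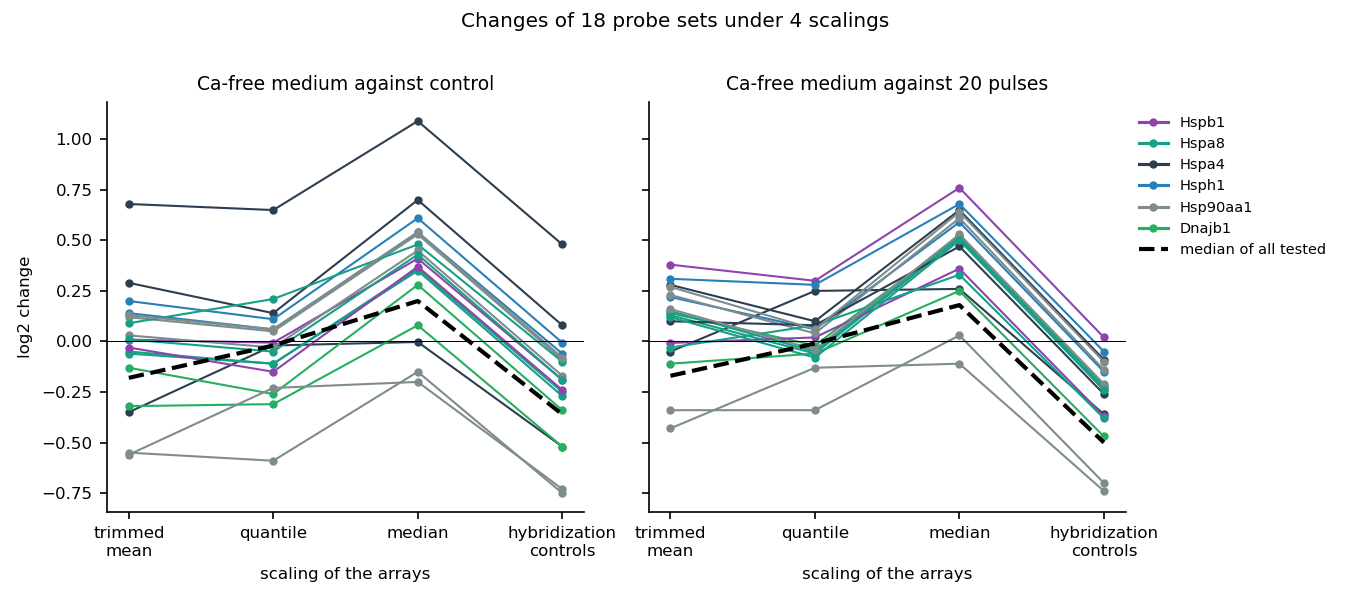
Log2 change of the 18 tested probe sets other than Hspa1a and Hspa1b under 4 scalings of the arrays, for Ca-free medium against control (left) and against 20 pulses (right); the dashed line is the median of all tested probe sets. Relative to the main scaling, members and dashed line rise under median scaling and fall under scaling to hybridization controls. Under quantile normalization the dashed line rises while most members fall. Hspa4 1435194_at stays above 0 under all 4 scalings on the left (0.68 in the main scaling).

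Other chaperones were counted by the brightest probe set of each gene, beside 10.6% higher and 29.7% lower over all probe sets in Ca-free medium against control. These shares were 1.1% and 0.374% after pulses, and 9.22% and 23.4% in Ca-free medium against pulses. Shares under other scalings are given above. The cytosolic chaperonin TRiC and prefoldin fold actin and tubulin. Among their 13 subunits, 5 were higher and 0 lower in Ca-free medium against control, and 0 were called after pulses. In Ca-free medium against pulses 10 were higher and 0 lower. The list's median turned negative under scaling to hybridization controls (-0.07 against control and -0.14 against pulses). Under quantile normalization 3 were higher in each Ca-free comparison, beside 9.78% of all probe sets against control and 5.06% against pulses. Pfdn1 rose from 2035 ± 208 to 3003 ± 436 (log2 change 0.55, limma adjusted p = 0.00121) and Cct5 from 9259 ± 426 to 10785 ± 177 (0.22, adjusted p = 0.00206; SD, n = 4 each). Of 20 tested cochaperones 4 were higher and 3 lower against control (16 and 0 under median scaling, 1 and 9 under hybridization controls, 1 and 4 under quantile normalization), with the HSP70-interacting St13 at 0.54 (limma adjusted p = 0.00102). Hspbp1, another nucleotide exchange factor, fell by 0.40 in Ca-free medium (0.00266) and by 0.40 after pulses (0.0323), where 12 of 23 alternatives kept the call.

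Among 12 chaperones of the endoplasmic reticulum 4 were higher and 1 lower in Ca-free medium against control (10 and 0 under median scaling, 2 and 4 under hybridization controls, 2 and 2 under quantile normalization), led by the disulfide isomerase Pdia3 (0.68, limma adjusted p = 2.38e-04), while another Pdia3 probe set was lower. The collagen chaperone Serpinh1 fell by 0.54. Mitochondrial chaperones gave 1 higher and 1 lower of 10, and 8 and 0 under median scaling or 0 and 2 under hybridization controls. Other HSP70, HSP40 and small heat shock proteins gave 2 and 5 of 20, and 7 and 0, 0 and 10 or 1 and 2 under median scaling, hybridization controls or quantile normalization. The 6 genes listed as heat shock factors and regulators were Hsf2, Hsf4, Hsbp1, Hsf2bp, Hikeshi and Heatr3. They gave 1 and 2, and 4 and 1, 1 and 4 or 2 and 2 in that order. In the last list Hsbp1, which binds HSF1, rose by 0.56 (limma adjusted p = 3.67e-04) and Hsf4, a factor of the lens, fell by 0.78 (0.00148). No gene of these 6 lists differed by at least 2-fold without overlap between the control pairs. The greatest differences were in Hyou1 (0.88) and Hspa12a (0.77).

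The genes whose signal most resembled that of Hspa1a over the 12 arrays, other than members, were Gm7969 (Pearson r = 0.959), Braf (0.948), Ddit4 (0.946), Acer2 (0.923) and Fcgr3 (0.914), among 16779 probe sets averaging 200 or more in signal. Ddit4, a stress-induced inhibitor of mTORC1, read 1152 and 1094 in the first pair, 711 and 702 in the second, 658 to 707 after pulses and 513 to 706 in Ca-free medium. Without controls 1 and 2, over 10 arrays, the correlations were 0.61, 0.53, 0.65, 0.28 and 0.61 in the order named, so the likeness rests largely on these arrays. The Hspa1b probe sets correlated with Hspa1a at 0.956 to 0.988 over 12 arrays and at 0.26 to 0.89 without them. The other members reached 0.718 at most over 12 arrays, in Dnajb1 1416755_at, which was at -0.13 without controls 1 and 2. The other Dnajb1 probe set, 1416756_at, was at 0.379 over 12 arrays and at 0.71 without that pair.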

How the data were processed

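Gene expression was measured on 12 Affymetrix arrays (biotin-labelled cRNA from total RNA), 4 per group. The deposited values are linear signal intensities that the authors made with MAS5, per the submitters' processing notes, and each array has a 2% trimmed mean of 150.001. The MAS5 version is not stated in the sources used here. The intensities were multiplied by 3.333 (trimmed mean 500), 32 was added and log2 taken; log2 changes are on that scale and understate changes of low signals, while folds between pairs of arrays are ratios of mean signals without the added 32. Precision is limited by having 4 arrays a group.

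The 27808 probe sets averaging 100 or more in signal were tested with limma 3.58.1 in R 4.3.3 (lmFit, eBayes with trend) over all 12 arrays, with Benjamini-Hochberg adjustment over all of them and calls at an adjusted p under 0.05. The script was tested on simulated data. The platform table paired 34958 probe sets with 1 gene, 932 with several and 9211 with none. Named were all probe sets of the listed genes, the 5 genes most like Hspa1a by correlation, and the leading genes of lists of related chaperones. The members and lists were chosen with earlier results of these data known. Alternatives were other scalings, filters and thresholds, each array left out, pairs of arrays and the replicate number as a block.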

Additional observations from a re-analysis of the deposited data

Results flagged for a closer look

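In groups of 4 arrays, a Dixon ratio (the gap of the outermost array to its neighbour over the group's range) above Dixon's 95% critical value marked 2 of the 69 groups tested, and chance marks about 1 in 20. Hspa1b 1452318_a_at read 2682 on array 2 of the 20 pulses group, below 2962 to 2996 on the other 3 arrays (ratio 0.894). Hsph1 1423566_a_at read 1381 in control 4, below 1687 to 1733 in the other controls (ratio 0.871).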

How the results depend on the processing

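In Ca-free medium against control, the 3 members called higher became 1 under quantile normalization, 12 under median scaling and 1 under scaling to hybridization controls. They became 5 with Ca-free arrays 1 and 4 only and 1 with arrays 2 and 3 only, both added after seeing the data. In those settings 2877 and 2314 of all 27808 probe sets were called higher, and shares under the scalings are given above. The 6 called lower became 1 under median scaling, 12 under hybridization controls, 2 at an adjusted p under 0.01, 3 against controls 3 and 4 only and 2 with Ca-free arrays 1 and 4 only. Of all 27808 probe sets, 4339 were lower at that threshold, 4474 against controls 3 and 4 only and 6937 with Ca-free arrays 1 and 4 only. After pulses, the 1 called higher became 0 at an adjusted p under 0.01 and against controls 1 and 2 only. Of all 27808 probe sets, 56 and 149 were called higher in these settings. The 0 called lower became 1 under hybridization controls, where 35 of 27999 probe sets were lower. That 1 was Hspa1a (-2.66), by whose signal the list was chosen, so it does not stand as support. Calls lower against controls 1 and 2 only are not counted, since the list was chosen by the Hspa1a signal of that pair. Against pulses, the 6 called higher in Ca-free medium became 0 under quantile normalization, 13 under median scaling, 0 under hybridization controls, 1 at an adjusted p under 0.01 and 0 with Ca-free arrays 2 and 3 only. The last settings called 1164 and 1655 of all 27808 probe sets higher. The 2 called lower became 0 under quantile normalization, 1 on the values as deposited, 0 under median scaling, 12 under hybridization controls, 1 at a minimum signal of 300, 1 with the 8 arrays compared, 0 at an adjusted p under 0.01 and 0 with Ca-free arrays 2 and 3 only. Of all probe sets, 2258 of 13600 were lower as deposited and 2638 of 14629 at a minimum signal of 300. The last 3 settings called 5768, 2563 and 4235 of 27808 lower. The cause was not tested. Leaving out each array in turn gave 2 to 5 higher and 4 to 7 lower against control, 0 to 1 higher and 0 to 1 lower after pulses, and 5 to 8 higher and 0 to 2 lower between Ca-free medium and pulses. The 1 lower after pulses was again Hspa1a, without control 4.

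Some single values reversed. Between Ca-free medium and pulses, scaling to hybridization controls gave -0.09 (Hspa4 1416146_at), -0.26 (Hspa4 1435194_at), -0.23 (Dnajb1 1416755_at), -0.24, -0.22 and -0.24 (Hspa8 1420622_a_at, 1420623_x_at and 1455789_x_at), -0.05 and -0.15 (Hsph1 1423566_a_at and 1425993_a_at), and -0.14, -0.10 and -0.21 (Hsp90aa1 1426645_at, 1437497_a_at and 1438902_a_at). Quantile normalization gave -0.04 for Hsp90aa1 1438902_a_at, and median scaling 0.33 for Hspa8 1431182_at and 0.03 for Hsp90aa1 1441827_x_at. Against control, median scaling gave 0.28 and 0.08 (Dnajb1 1416755_at and 1416756_at) and 0.35 and 0.36 (Hspa8 1420622_a_at and 1420623_x_at), hybridization controls -0.00577 (Hsph1 1425993_a_at), -0.17 (Hsp90aa1 1438902_a_at) and -0.19 (Hspa8 1455789_x_at), and Ca-free arrays 1 and 4 only 0.48 (Hspb1 1422943_a_at).

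With the replicate number as a block the member counts were 3 and 6, 1 and 0, and 6 and 2 higher and lower. Arrays of one number deviated together with a mean correlation of 0.0156 (range -0.058 to 0.101), beside -0.00521 for arrays of other numbers. Of the 12 arrays, 7 correlated best with their own number. These values do not settle whether the numbers were pairs. The labels state no pairing, and the main fit used none. The block moved all calls after pulses from 307 higher and 104 lower to 178 and 49. Signals near the minimum have the least precision.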
